A study of Bos taurus with 40 samples.

Results

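The calpains are proteases of the cytosol that are switched on by calcium, and calpastatin is their protein inhibitor. The genes described here are the calpain genes and calpastatin, chosen by symbol: CAPN1, CAPN2, CAPN3, CAPN5, CAPN7, CAPN10, CAPNS1 and CAST. Of these 8 symbols, 7 have a row in the deposited count tables, which list 13570 genes, and CAPN10 is not analysed here. All 7 passed the filter of at least 1 read in at least 1 sample, which kept 13148 genes.

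Calpains cut their targets at few places and so change proteins rather than digest them to the end. In meat science they are known for the loosening of muscle fibres after slaughter, in which calpain cuts structural proteins of the myofibril while calpastatin holds the enzyme back. The classical enzymes are μ-calpain, whose catalytic subunit is encoded by CAPN1, and m-calpain, whose catalytic subunit is encoded by CAPN2. Both pair with the small regulatory subunit encoded by CAPNS1. CAPN3 encodes a calpain of skeletal muscle that binds the giant protein titin and whose loss causes a limb-girdle muscular dystrophy in people. CAPN5 and CAPN7 encode calpains that lack the calcium-binding end of the classical enzymes.

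RNA was taken from liver, abdominal fat, longissimus dorsi muscle (the long muscle of the back) and the pituitary gland of 10 Korean cattle slaughtered at an age above 22 months. The animals were 5 cows and 5 bulls, labelled Female(Cow) and Male(Bull), with no treatment named in the labels, and each gave 1 sample per tissue, 40 samples in all. The design asks which genes differ between the sexes in each tissue (model M1, sex alone), and over the tissues together (model M2, sex and tissue). Whole tissue was sequenced, so fewer cells of a type and less RNA per cell cannot be told apart in any of the values below.

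Reads on genes ranged from 5173092 to 19165864 per sample with a median of 10005607. Levels are given as CPM (reads of a gene per 1000000 reads on genes) scaled with the TMM method over the 40 samples, and they compare a gene between samples, not 1 gene with another, since transcript length is not removed. The tissue labels were checked against marker genes: the summed level of 5 liver markers was 113300 to 283500 CPM in liver and at most 473 elsewhere, that of 6 pituitary markers 81660 to 284800 in the pituitary and at most 385 elsewhere, that of 4 of 5 fat markers 5111 to 20850 in fat and at most 1030 elsewhere (in muscle), and that of 6 muscle markers 117400 to 191700 in muscle and at most 173 elsewhere. One label went against the data. The liver sample labelled bull 3 held 0 reads of the Y-linked genes USP9Y, DDX3Y and ZFY and 8694 reads of XIST, against 4978 to 26977 in the livers of cows, so sex differences in liver were also fitted without it. Its nearest liver sample was that of cow 4, with a chi-square per degree of freedom of 15.0 between their counts and r = 0.993 across genes on the log2 scale, where the next closest pair of liver samples had 43.9 and the median pair 111. Whether these 2 liver samples came from different animals cannot be told from the counts. The fat sample of bull 5 had a TMM factor of 0.963 against 1.26 to 1.46 in the other fat samples.

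CAPN3 was, in these animals, a gene of muscle. In muscle its level was 1197, 1222, 1445, 1281 and 1644 CPM in cows 1 to 5, and 1233, 1113, 1067, 1184 and 1299 in bulls 1 to 5. In the pituitary it was 4.23, 2.06, 2.90, 3.04 and 2.74 CPM in the cows and 2.02, 2.42, 4.43, 1.81 and 8.87 in the bulls. In fat the cows had 1.70, 2.08, 1.15, 3.42 and 3.70 CPM and the bulls 0.633, 1.27, 0.824, 0.757 and 1.78. The lowest muscle sample was 120-fold above the highest of the 30 other samples, the pituitary of bull 5. Liver was the lowest tissue, with a range of 0.156 to 1.61 CPM and with fewer than 3 reads in 3 of its 10 samples. Behind these levels stand 4034 to 14128 reads per muscle sample and 1 to 136 reads per sample elsewhere.

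By mean CPM in muscle, with transcript length not removed, CAPN3 ranked 114 among all tested genes. Its mean level there was 1269 ± 168 CPM (SD, n = 10). It was 368-fold the mean of the pituitary (3.45 ± 2.10 CPM) and 1524-fold the mean of liver (0.832 ± 0.516 CPM). In edgeR's quasi-likelihood test with Benjamini-Hochberg adjustment over all genes, muscle exceeded liver by 10.59 on the log2 scale (SE 0.33, adjusted p = 1.06e-24), fat by 9.53 (SE 0.29, adjusted p = 1.94e-23) and pituitary by 8.50 (SE 0.28, adjusted p = 1.11e-22). The differences among the other 3 tissues were smaller and also passed the test. On the log2 scale the pituitary was above liver by 2.10 and above fat by 1.04 (adjusted p = 0.00289), and fat above liver by 1.06 (adjusted p = 0.00703). The liver values behind them rest on 1 to 12 reads per sample.

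**Figure D1:**
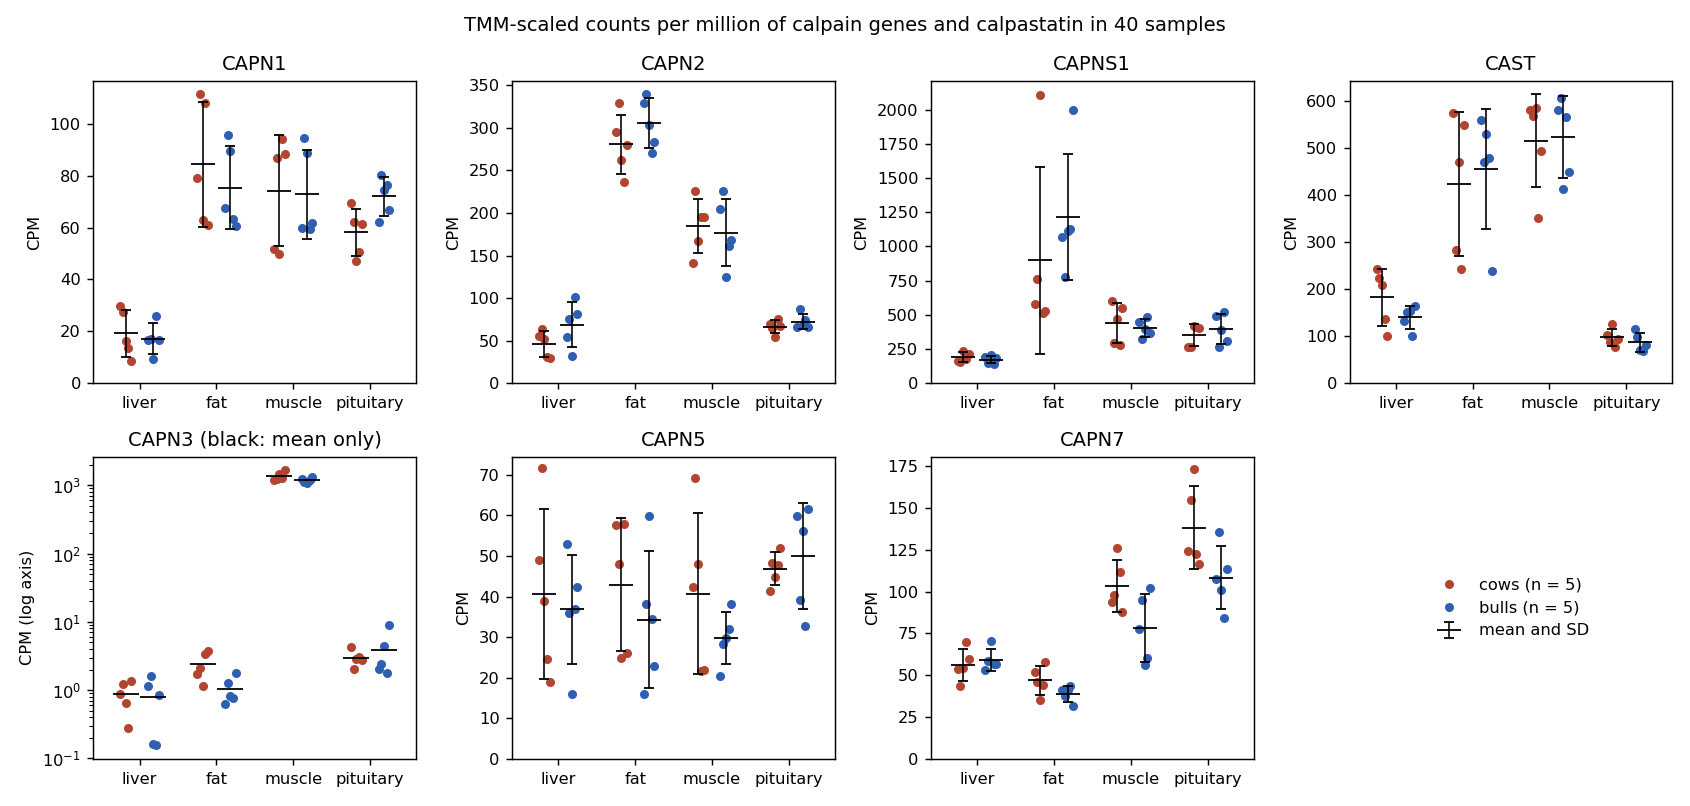
Level of each calpain gene and of calpastatin in TMM-scaled CPM (vertical axis, logarithmic for CAPN3 and linear for the others) in liver, fat, muscle and pituitary, with 1 point per animal, cows in red and bulls in blue, and black bars for the mean and SD of 5 samples (the mean alone for CAPN3). CAPN3 lies at 1067 CPM or more in muscle and at 8.87 CPM or less elsewhere, CAPN2 and CAPNS1 are highest in fat, CAST is high in muscle and fat, and the red and blue points of each tissue overlap for every gene.

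Reads of CAPN3 outside muscle were set beside muscle markers in the same samples. The summed level of the 6 muscle markers (ACTA1, CKM, MYH1, MYH2, MYH7 and TNNT3) was 7.19 to 173 CPM in liver, 12.4 to 143 in fat and 11.99 to 73.3 in the pituitary, so each of these tissues held some reads of muscle genes. In muscle, CAPN3 amounted to 0.581 to 1.11% of the marker sum with a median of 0.905%. In the pituitary it was 3.32 to 35.3% with a median of 10.2%, in fat 1.93 to 12.5% with a median of 2.73%, and in liver 0.490 to 12.4% with a median of 2.30%. The ratio in all 10 pituitary and all 10 fat samples was above the highest ratio of muscle, and the liver samples lay on both sides of it. Single markers weigh on these sums, with a median of 8.54 CPM for MYH7 in the pituitary and 14.1 CPM for TNNT3 in fat. Where the CAPN3 reads outside muscle came from was not tested. The bulls' pituitaries held more of the marker sum (22.0 to 73.3 CPM) than those of the cows (11.99 to 33.8 CPM).

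**Figure D2:**
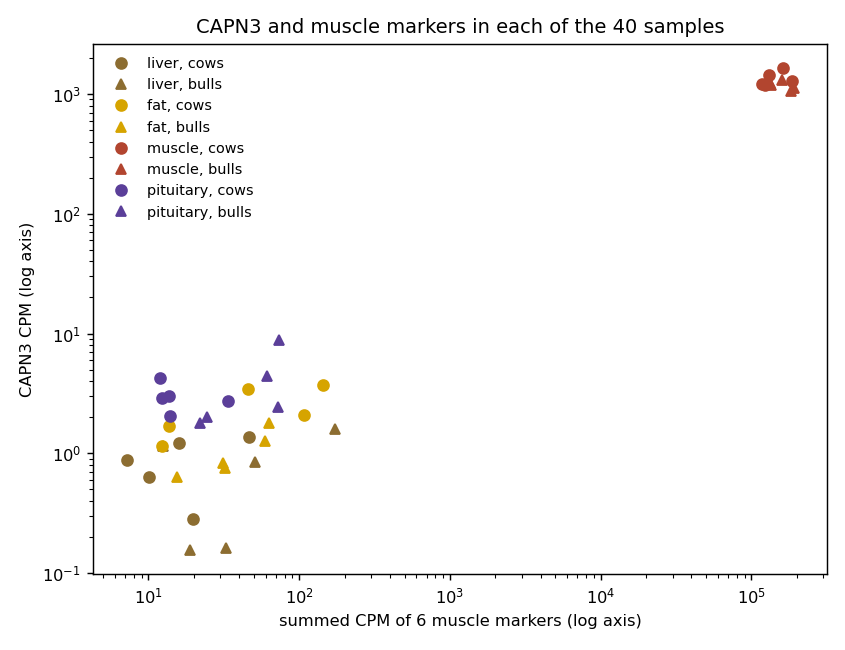
CAPN3 level against the summed level of 6 muscle markers, both in CPM on logarithmic axes, with 1 point per sample, coloured by tissue, circles for cows and triangles for bulls. The 10 muscle samples sit together at the upper right, at 1067 to 1644 CPM of CAPN3, and the other 30 samples stay below 9 CPM while their marker sums span 7.19 to 173 CPM.

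The catalytic subunits of the classical calpains were found in every tissue and were both lowest in liver. CAPN2 in fat was 295, 329, 262, 236 and 280.4 CPM in the cows and 329, 339.5, 303, 270.4 and 283 in the bulls. In muscle it was 141, 226, 167, 195 and 195 CPM in the cows and 205, 226, 125, 162 and 168 in the bulls. Every fat sample was above every muscle sample. The pituitary values kept within a narrow band, 69.5, 65.3, 54.5, 75.5 and 67.1 CPM in cows and 66.1, 86.7, 67.8, 74.8 and 65.9 in bulls. Liver was more spread, with 55.6, 63.7, 51.6, 31.2 and 29.9 CPM in cows and 54.3, 75.5, 32.2, 102 and 81.0 in the samples labelled bull.

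The order of CAPN2 was fat (293 ± 33.1 CPM), muscle (181 ± 34.2), pituitary (69.3 ± 8.39) and liver (57.7 ± 23.6; SD, n = 10 each). Fat exceeded liver by 2.36 on the log2 scale (SE 0.17, adjusted p = 9.88e-16 in edgeR's quasi-likelihood test), the pituitary by 2.08 (adjusted p = 3.96e-14) and muscle by 0.69 (adjusted p = 0.000402). Muscle exceeded the pituitary by 1.39 (adjusted p = 1.28e-09). The difference of the pituitary to liver, 0.28 with a 95% interval of −0.05 to 0.60, did not pass the test (adjusted p = 0.139). Under scaling by library size alone it was 1.09 and passed (adjusted p = 2.92e-06).

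CAPN1 separated liver from the rest. In liver the cows had 29.8, 27.6, 16.4, 13.6 and 8.75 CPM and the samples labelled bull 16.6, 17.2, 9.18, 26.1 and 16.8. In muscle the cows had 51.9, 87.0, 50.01, 94.1 and 88.5 CPM and the bulls 59.9, 94.5, 88.6, 59.5 and 61.6. Each sex thus fell into samples at 50.01 to 61.6 CPM and samples at 87.0 to 94.5 CPM, with none between. Under scaling by library size alone the gap nearly closed in cows, with cow 1 at 47.3 and cow 4 at 48.8 CPM. In bulls it remained, between bull 4 at 46.6 and bull 2 at 61.0 CPM. Fat ranged from 60.6 to 111 CPM and the pituitary from 47.2 to 80.4 CPM, and neither overlapped with liver.

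The mean CAPN1 level was 79.9 ± 19.9 CPM in fat, 73.6 ± 18.4 in muscle, 65.1 ± 10.7 in the pituitary and 18.2 ± 7.34 in liver (SD, n = 10 each). Liver was lower than fat by 2.13 on the log2 scale (SE 0.19, adjusted p = 1.06e-12 in edgeR's quasi-likelihood test), than muscle by 2.01 (adjusted p = 3.98e-12) and than the pituitary by 1.84 (adjusted p = 4.11e-11). None of the other 3 pairs passed: muscle minus fat was −0.12 (95% interval −0.49 to 0.25), pituitary minus fat −0.29 (−0.66 to 0.07) and pituitary minus muscle −0.18 (−0.54 to 0.19). When samples were scaled by library size alone, the first of these became −0.95 and passed (adjusted p = 0.000130), and the last turned to 0.78 and passed (adjusted p = 0.00113). CAPN2, by contrast, differed in all 3 of these pairs of tissues. The ratio of CAPN1 to CAPN2 reads was 0.940 ± 0.116 in the pituitary, 0.415 ± 0.120 in muscle, 0.330 ± 0.105 in liver and 0.275 ± 0.0765 in fat (CPM over CPM within a sample, SD, n = 10). This ratio does not depend on how the samples are scaled, and since the genes differ in length it describes the change between tissues and not which enzyme is the more abundant.

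CAPNS1, the shared small subunit, was highest in fat and also least even there. In fat its level was 577, 765, 2111, 514 and 527 CPM in cows 1 to 5 and 1067, 777, 1112, 1128 and 1997 in bulls 1 to 5. Cow 3 and bull 5 stood apart, while the 8 other fat samples lay between 514 and 1128. In muscle the cows had 600.4, 294, 466, 282 and 552 CPM and the bulls 448, 320, 394, 485 and 370. The remaining tissues had no sample standing apart either, with 264 to 524 in the pituitary and 141 to 239 in liver. In those same fat samples of cow 3 and bull 5, the summed level of 5 markers of endothelium and fibroblasts was 8973 and 10490 CPM against 9390 to 37580 in the others, and that of 4 fat markers was 10150 and 20850 CPM against 5111 to 11840 in the others. Whether the makeup of these samples bears on their CAPNS1 level was not tested.

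By mean, CAPNS1 stood at 1057 ± 575 CPM in fat, 421 ± 108 in muscle, 374 ± 94.8 in the pituitary and 181 ± 31.6 in liver (SD, n = 10 each). Fat exceeded liver by 2.54 (SE 0.22, adjusted p = 8.49e-13 in edgeR's quasi-likelihood test), pituitary by 1.50 (adjusted p = 1.89e-07) and muscle by 1.32 (adjusted p = 2.37e-06) on the log2 scale. With any 1 animal left out, the difference of fat to muscle stayed between −1.47 and −1.13 (muscle minus fat). Muscle and pituitary did not separate, with a difference of −0.18 (95% interval −0.61 to 0.25, adjusted p = 0.495) that became 0.70 and passed under scaling by library size alone (adjusted p = 0.00347).

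CAST, the inhibitor, followed another order than the proteases. Its level in muscle was 581, 569, 587, 352 and 494 CPM in the cows and 582, 608, 413, 567 and 449 in the bulls. In fat it was 575, 283, 472, 243 and 550.1 CPM in the cows and 559, 472, 531, 479 and 238 in the bulls. The pituitary had the least, at 102, 87.8, 126, 77.1 and 94.6 CPM in the cows and 116, 99.04, 71.0, 67.8 and 82.2 in the bulls. In fat, cow 2, cow 4 and bull 5 lay at 283 CPM or less and the other 7 samples at 472 or more, with none between. Liver had 243, 223, 209, 136 and 101 CPM in the cows and 133, 151, 153, 101 and 164 in the samples labelled bull, overlapping the pituitary at its lower end and barely reaching the lowest fat samples at its upper end.

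Mean CAST was 520.0 ± 88.1 CPM in muscle, 440.2 ± 134 in fat, 162 ± 49.2 in liver and 92.4 ± 19.0 in the pituitary (SD, n = 10 each). Muscle exceeded the pituitary by 2.50 on the log2 scale (SE 0.18, adjusted p = 4.34e-15 in edgeR's quasi-likelihood test) and liver by 1.69 (adjusted p = 1.27e-10), and fat exceeded them by 2.26 (adjusted p = 8.77e-14) and 1.46 (adjusted p = 6.11e-09). Liver was above the pituitary by 0.80 (adjusted p = 0.000192), a difference that fell away under scaling by library size alone, where it was 0.02 the other way. Muscle and fat did not differ beyond their spread (0.24, 95% interval −0.12 to 0.60, adjusted p = 0.265), but with library sizes alone fat passed as the higher (−0.56, muscle minus fat, adjusted p = 0.0240). CAST has several promoters and splice forms, and counts per gene cannot tell them apart.

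The reads of the proteases were then set against those of their inhibitor within each sample. CAPN2 over CAST was 0.785 ± 0.201 in the pituitary, 0.735 ± 0.270 in fat, 0.391 ± 0.243 in liver and 0.356 ± 0.0874 in muscle (SD, n = 10). CAPN1 over CAST was 0.741 ± 0.224 in the pituitary, 0.210 ± 0.119 in fat, 0.149 ± 0.0589 in muscle and 0.117 ± 0.0542 in liver. For CAPN1 the lowest pituitary sample (0.375) lay above every muscle and liver sample, of which the highest was 0.268, and below the highest fat sample (0.444).

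Relative to calpastatin, CAPNS1 was also highest in the pituitary, at 4.24 ± 1.58, followed by fat at 2.77 ± 2.21, liver at 1.21 ± 0.419 and muscle at 0.820 ± 0.193. The wide spread in fat came with bull 5, whose CAPNS1 was near the top and whose CAST was the lowest of all fat samples, giving a ratio of 8.39. Muscle had the highest mean CAST, though not beyond its spread against fat. It had the lowest mean ratio to CAST for CAPN2 and CAPNS1 and the lowest but liver for CAPN1. For CAPN2 the median was lower in liver (0.291) than in muscle (0.362), and the liver sample of bull 4 had a ratio of 1.01. In muscle the ratio of CAPN2 to CAST ranged from 0.243 to 0.554, with 0.375 ± 0.121 in cows and 0.337 ± 0.0408 in bulls (SD, n = 5). No test was made on these ratios.

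**Figure D3:**
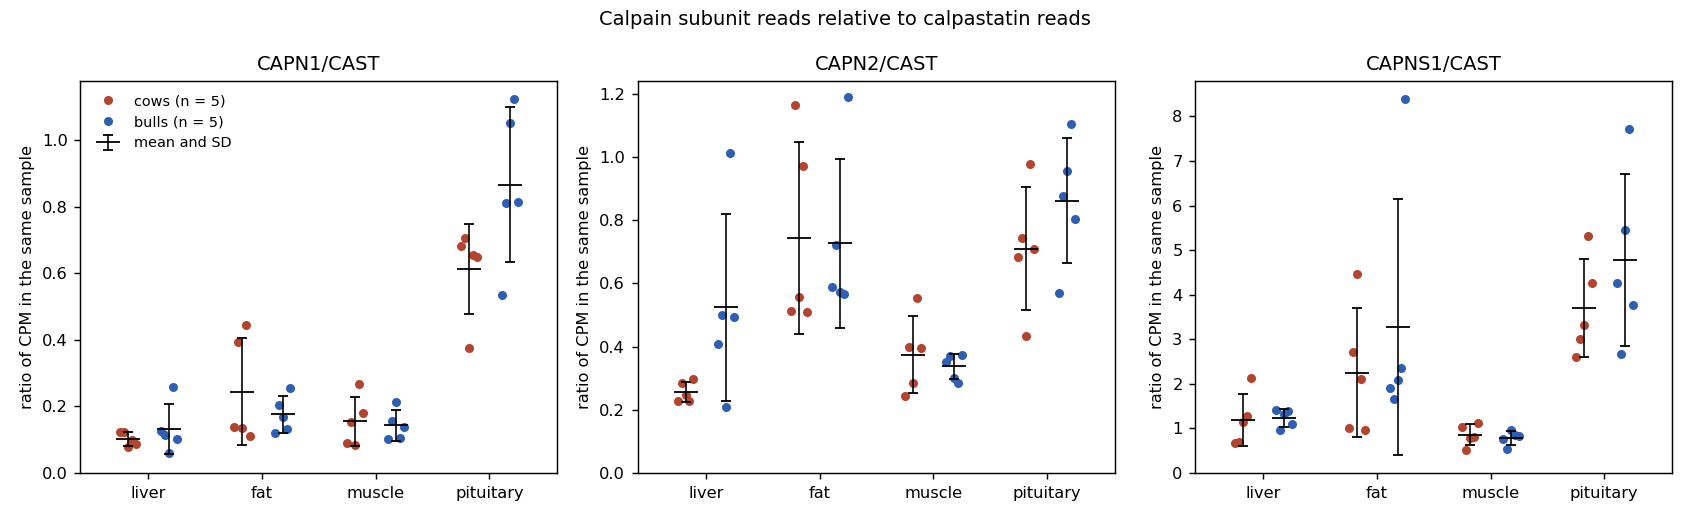
Ratio of CAPN1, CAPN2 and CAPNS1 to CAST within each sample (CPM over CPM, vertical axis from 0) in 4 tissues, with 1 point per animal, cows in red and bulls in blue, and bars for the mean and SD of 5 samples. Over both sexes the pituitary has the highest mean in all 3 panels, the muscle points are low and close together, and bull 5 in fat stands alone at 8.39 in the panel of CAPNS1.

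CAPN7 was highest in the pituitary. There the cows had 124, 155, 174, 123 and 117 CPM and the bulls 107, 135, 101, 84.0 and 114. Muscle followed with 93.7, 97.9, 126, 112 and 87.8 CPM in cows and 77.8, 94.8, 56.3, 60.5 and 102 in bulls. The pituitary samples were all above the liver samples (43.7 to 70.3 CPM) and the fat samples (31.4 to 58.0 CPM), and they overlapped with muscle. All 6 pairs of tissues passed the test, from the pituitary over fat by 1.52 on the log2 scale (SE 0.14, adjusted p = 7.48e-13 in edgeR's quasi-likelihood test) down to the pituitary over muscle by 0.44 (adjusted p = 0.00431) and liver over fat by 0.44 (adjusted p = 0.00491). The last of these turned to 0.30 in favour of fat under scaling by library size alone, and muscle over fat (1.08, adjusted p = 6.93e-09) then no longer passed (0.26, adjusted p = 0.140).

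CAPN5 was the most even member across tissues. Its mean was 48.4 ± 9.23 CPM in the pituitary, 38.7 ± 16.7 in liver, 38.6 ± 16.3 in fat and 35.2 ± 15.0 in muscle (SD, n = 10 each). The highest mean was 1.38-fold the lowest, and single samples spanned 16.1 to 71.7 CPM in liver, 16.1 to 60.0 in fat, 20.5 to 69.1 in muscle and 32.8 to 61.5 in the pituitary. None of the 6 pairs passed the test. The pituitary was above muscle by 0.48 (95% interval 0.00 to 0.95, adjusted p = 0.0839), and with the animal as a term in the model, which uses that the same animals gave both tissues, this became 0.55 and passed with an adjusted p of 0.0425. It passed as well in DESeq2 (adjusted p = 0.0353) and with RLE factors (adjusted p = 0.0418), and with 1 animal left out the adjusted p ran from 0.0242 (without cow 2, the only such fit in which it passed) to 0.199. Under scaling by library size alone 4 of the 6 pairs passed: the pituitary was above muscle by 1.35 (adjusted p = 6.17e-05) and above liver by 1.14 (adjusted p = 0.000449), fat was above liver by 0.68 (adjusted p = 0.0304), and muscle minus fat was −0.89 (adjusted p = 0.00557).

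Counted over the members, tissues differed about as often as for genes at large. Between liver and fat 6 of 7 passed, 5 of them higher in fat, where 64.3% of all tested genes passed and 35.4% were higher in fat. Between liver and muscle 6 of 7 passed, all 6 higher in muscle, against 62.1% of all genes with 34% higher in muscle, and between liver and pituitary 5 of 7 against 64.5%. Fat and muscle differed in 4 of 7 members against 59.6% of all genes, fat and pituitary in 5 of 7 against 64.6%, and muscle and pituitary in 4 of 7, of which 3 were higher in muscle, against 64% of all genes with 31.5% higher in muscle. The median member difference was 1.46 for fat over liver and 1.67 for muscle over liver, where the median of all genes was 0.13 and 0.11.

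Of the 42 tests of a member between 2 tissues, 30 passed. All 30 passed under every alternative run except scaling by library size alone, and 27 also under that. Library size alone moved the median difference of all genes by −0.73 to 0.86 on the log2 scale between tissues. The shift was small for muscle minus liver (−0.08) and for pituitary minus fat (0.12). In the other pairs it was 0.69 or more in size, and tissue differences below about that size rest on the TMM scaling there. The samples of the 2 tissues did not overlap at all for 3 members between liver and fat (CAPN1, CAPN2 and CAPNS1), where 21% of all genes do not overlap, for 5 between liver and muscle (26.6%) and for 4 between liver and pituitary (33.2%). They did not overlap for 2 between fat and muscle (CAPN2 and CAPN3, 15.8%), for 3 between fat and pituitary (CAPN2, CAPN7 and CAST, 24.5%) and for 3 between muscle and pituitary (CAPN2, CAPN3 and CAST, 30.8%).

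No member passed the test between cows and bulls. M1 and M2 were tested with the likelihood ratio test of edgeR, and M2 treats the samples of an animal as independent. In M1, 0 of 7 passed in liver, fat, muscle and pituitary, where 0.175%, 0.114%, 0.517% and 0.745% of all genes passed. In M2 over the 4 tissues it was again 0 of 7, against 1.69% of all genes. At these backgrounds 0 of 7 does not set the members apart from other genes. The quasi-likelihood test also called 0 of 7 in each tissue and in M2, where it called 0.00761%, 0.0228%, 0.0532%, 0.0913% and 0.586% of all genes, and so did DESeq2, with 0.152%, 0.228%, 0.677%, 1.02% and 2.12% of all genes. At an unadjusted p under 0.05 there were 0 of 7 in liver, 1 in fat (CAPN3), 0 in muscle, 0 in the pituitary and 1 in M2 (CAPN7), where 7.45%, 6.88%, 11%, 9.27% and 16.7% of all genes reached that level. For each member the cows overlapped with the bulls in every tissue. The share of all genes whose sexes did not overlap was 0.548% for liver, 1.29% for fat, 1.65% for muscle and 1.34% for the pituitary.

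The intervals in muscle state how large a difference these 5 animals per sex leave possible. Bulls minus cows on the log2 scale was −0.19 for CAPN3 (95% interval −0.70 to 0.31), −0.01 for CAPN1 (−0.57 to 0.54) and −0.06 for CAPN2 (−0.57 to 0.45). For the inhibitor CAST it was 0.02 (−0.52 to 0.55) and for CAPNS1 −0.12 (−0.72 to 0.48). CAPN7 and CAPN5 had the lowest estimates in muscle, −0.40 (−0.92 to 0.12) and −0.45 (−1.14 to 0.24). The smallest adjusted p of a member in muscle was 0.622.

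Outside muscle the estimates farthest from 0 were those of CAPN3 in fat and CAPN2 in liver. CAPN3 in fat was lower in bulls by 1.19 on the log2 scale (SE 0.51, 95% interval −2.20 to −0.19, unadjusted p = 0.0198 and adjusted p = 0.616 in edgeR's likelihood ratio test). It rests on 7 to 59 reads per sample, and the 2 fat samples with the most CAPN3, those of cow 5 and cow 4, had muscle marker sums of 143 and 45.5 CPM. The sums were 12.4 to 108 CPM in the other cows and 15.4 to 63.2 CPM in the bulls. The part of those muscle reads in the difference was not tested. CAPN2 in liver was higher in the samples labelled bull by 0.60 (95% interval −0.02 to 1.23, adjusted p = 0.703), and by 0.77 without the sample labelled bull 3 (adjusted p = 0.442).

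In fat, the members with a sample standing apart had wide intervals. CAPNS1 was 0.41 higher in bulls (95% interval −0.49 to 1.31) and 0.17 without the sample of bull 5, but 1.03 without that of cow 3 (adjusted p = 0.282). CAST was 0.10 higher (−0.62 to 0.81) and 0.26 without the sample of bull 5.

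In the pituitary, CAPN7 was lower in bulls by 0.35 (95% interval −0.72 to 0.01, adjusted p = 0.562) and CAPN1 higher by 0.31 (−0.03 to 0.65, adjusted p = 0.585). CAPN7 also gave the smallest p in M2, at −0.24 (SE 0.10, unadjusted p = 0.0174, adjusted p = 0.196), with bulls lower in fat, muscle and pituitary and 0.09 higher in liver. It was called only with library sizes alone, at −0.37 (adjusted p = 0.0359), a setting that moved the median of all genes by −0.14. The interaction of sex and tissue, which tests whether the sex difference itself changes between tissues, called 0 of 7 members (0.335% of all genes; 0 of 7, with the same share, in DESeq2) and had 1 of 7, CAPN3, at an unadjusted p under 0.05 (8.58% of all genes). That value was 0.0468 before and 0.565 after adjustment.

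**Figure D4:**
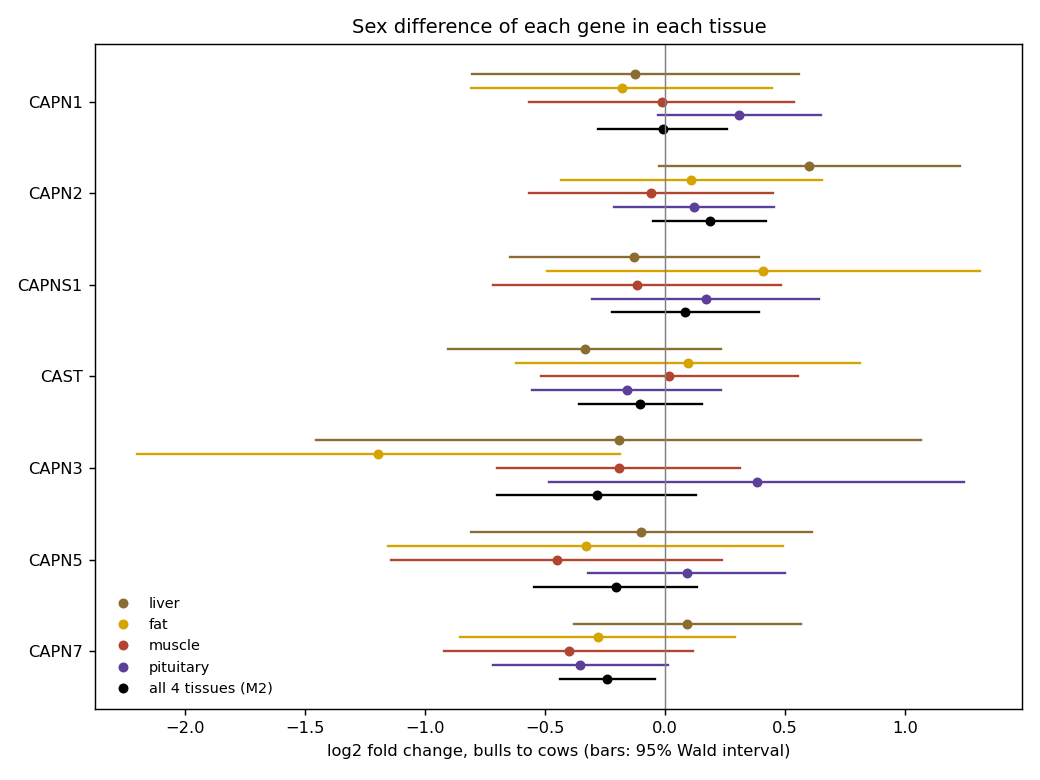
Difference between bulls and cows of each member on the log2 scale (horizontal axis, negative where bulls were lower) in liver, fat, muscle and pituitary and over the 4 tissues (M2, black), with points for the fitted value and bars for its 95% Wald interval from 5 animals per sex. Among the intervals shown, those of CAPN3 in fat and CAPN7 in M2 leave out 0, and neither passed after adjustment over all genes. The M2 fit treats the samples of an animal as independent.

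Of 10 further calpain gene symbols, 5 are in the tables. CAPN6, which encodes a calpain that lacks the active-site cysteine, was at 58.3 ± 23.8 CPM in muscle and 49.7 ± 12.2 in the pituitary, 5.61 ± 2.78 in liver and 2.05 ± 3.81 in fat (SD, n = 10). In fat, 1 sample, that of cow 4, held 12.5 CPM and the others 0.0650 to 2.84. CAPN8 stayed below 1 CPM outside liver, and in liver the sample of bull 4 had 27.3 CPM while the other 9 had 0.137 to 2.51. That same liver sample had the highest CAPN2 level of the tissue, 102 CPM. CAPN12, CAPN13 and CAPN14 were near 0, with no mean above 0.134 CPM in any tissue. By sex, 0 of these 5 passed in any of the 4 tissues or in M2 with either edgeR test, or in the interaction. The share of all genes that passed was 0.114 to 1.69% in the likelihood ratio test and 0.00761 to 0.586% in the quasi-likelihood test. At an unadjusted p under 0.05 in the likelihood ratio test there were 3 of 5 in liver (7.45% of all genes), 1 in M2 (16.7%) and 1 in the interaction (8.58%), and the quasi-likelihood test had 2 of 5 in liver. The 3 in liver were CAPN6, CAPN8 and CAPN14, and CAPN8 and CAPN14 rest mostly on 1 sample each. CAPN8 had 350 reads in bull 4 against 1 to 15 in the other livers, and 14 of the 16 liver reads of CAPN14 were in cow 1.

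Proteins known to be cut by calpain in muscle formed the next list, of which 8 of 10 symbols are in the tables (FLNC, TNNT3, DES, TNNT1, VCL, TLN1, SPTAN1 and DMD). Between liver and muscle 7 of 8 were higher in muscle and 0 lower, where 34% of all genes were higher in muscle and 28% higher in liver. Between fat and muscle 6 were higher in muscle and 2 lower, where 26.8% of all genes were higher in muscle and 32.8% higher in fat. Since the list was chosen for proteins cut in muscle, a higher level there follows in part from that choice. Filamin C (FLNC), an actin cross-linker, was at 39600 ± 52590 CPM in muscle (3390 to 181500), troponin T3 (TNNT3), of the fast fibre's thin filament, at 14140 ± 4468, and desmin (DES), which ties myofibrils together, at 13130 ± 3416 (SD, n = 10). TNNT3 is also among the muscle markers above. Talin 1 (TLN1) and spectrin alpha (SPTAN1), which serve many cell types, were the pair higher in fat, at 1590 ± 436 and 733 ± 175 CPM against 572 ± 256 and 286 ± 86.7 in muscle.

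By sex, 1 of these 8 passed in the pituitary (0.745% of all genes), FLNC, higher in bulls by 1.83 on the log2 scale (SE 0.48, adjusted p = 0.0334 in edgeR's likelihood ratio test, 0.246 in its quasi-likelihood test). TNNT3 in the same tissue had 1.80 (adjusted p = 0.130), and it passed the interaction (adjusted p = 0.0427). The muscle marker sum of the pituitaries was likewise higher in bulls, as given above, and its part in these differences was not tested. In liver, fat, muscle and M2, 0 of 8 passed, against 0.175%, 0.114%, 0.517% and 1.69% of all genes. At an unadjusted p under 0.05 there were 3, 2, 2 and 4 of 8 (7.45%, 6.88%, 11% and 16.7% of all genes).

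Partners of calpain 3 and proteins of membrane repair were in the tables for 5 of 10 symbols. All 5 were higher in muscle than in liver (34% of all genes). Against fat, 3 were higher in muscle and 2 lower (26.8% and 32.8% of all genes). Some were listed as proteins of muscle, so a higher level there follows in part from the choice of list. ANKRD1, a stress-responsive titin-binding protein, was at 7325 ± 9116 CPM in muscle (596 to 28910) and at most 18.3 CPM elsewhere, and dysferlin (DYSF), a protein of membrane repair, was at 362 ± 101 CPM in muscle against 143 ± 44.8 in fat, 63.2 ± 25.1 in liver and 13.7 ± 2.52 in the pituitary. The annexins ANXA1 and ANXA2 were highest in fat, at 427 ± 151 and 2228 ± 646 CPM. Caveolin 3 (CAV3), of the muscle membrane, was at 57.6 ± 21.3 CPM in muscle and below 1 CPM elsewhere. By sex, 0 of 5 passed in any tissue, in M2 or in the interaction, where 0.114 to 1.69% of all genes passed in edgeR's likelihood ratio test. At an unadjusted p under 0.05 there was at most 1 of 5, against 6.88 to 16.7% of all genes.

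Other protease families were counted in the same way. Of 15 cathepsins and cystatins (lysosomal proteases and their inhibitors) 12 were higher in fat than in muscle and 0 lower, against 32.8% and 26.8% of all genes. Cathepsin D (CTSD) was at 2145 ± 1212 CPM in fat and 532 ± 220 in muscle, and cathepsin B (CTSB) at 1096 ± 290 and 334 ± 77.8. Of 7 caspases, the proteases of cell death and inflammation, 5 were lower in muscle than in liver and 0 higher, against 28% and 34% of all genes. By sex, 1 cathepsin passed, CTSL1 in M2 (1.69% of all genes), lower in bulls by 1.07 on the log2 scale (SE 0.30, adjusted p = 0.0325 in edgeR's likelihood ratio test and 0.0821 in its quasi-likelihood test), at mean levels of 0.234 to 2.14 CPM by tissue. No caspase passed in any comparison of the sexes, where 0.114 to 1.69% of all genes passed in the likelihood ratio test.

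Members were also compared with each other by how they deviated together once the mean of each tissue and sex was subtracted (Pearson's r of log2(CPM + 1) over the 40 samples, which share libraries and animals). CAPN1 and CAPN2 deviated together most, with r = 0.682 of 21 pairs. CAPN1 also went with CAPN5 (0.460), and CAPNS1 went against CAPN1 (−0.480) and CAPN7 (−0.434). For CAST the values were −0.012 with CAPN1, 0.211 with CAPN2, −0.151 with CAPN3, 0.227 with CAPN5, 0.205 with CAPN7 and −0.047 with CAPNS1.

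Among 10945 genes with a mean of at least 1 CPM, those most like each member on this measure were named by a fixed rule of 3 per member. For CAPN1 they were OBSL1 (r = 0.832), AP1G2 (0.828) and ARHGEF10L (0.811), and for CAPN2 they were HK1 (0.739), SERPINB1 (0.724) and IFT122 (0.723). CAPNS1 went with SH3BGRL3 (0.877), RAB11B (0.869) and PRDX6 (0.839), and CAST with ICK (0.868), CLIP1 (0.865) and FOXP1 (0.854). CAPN3 had the weakest likeness, to ATP2A1 (0.644), which encodes the calcium pump of fast muscle fibres, COL5A3 (0.632) and GNL3L (0.617). In the 30 samples outside muscle CAPN3 had only 1 to 136 reads. All these values are the highest among 10945 genes, and how high such a maximum runs by chance was not tested. CAPN5 went with RASA3 (0.794), LPIN3 (0.777) and TEP1 (0.770), and CAPN7 with ZZZ3 (0.736), FBXO38 (0.699) and DNAJB14 (0.690).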

How the data were processed

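Read counts per gene were made by the authors. Per the labels and the study's methods, Trimmomatic removed adapters, TopHat2 with Bowtie2 placed the read pairs on bosTau7 (UCSC), and HTSeq counted them by gene symbol. The deposited tables, 1 per sample, hold these raw counts with no normalization. The counting mode and strand setting are not given in the sources used here. A row without a gene name (0.114 to 2.69% of reads on genes) was left out. Reads outside genes were 33.3 to 54.3% of the reads on genes, on that row or outside genes. Reads not placed uniquely do not enter this share. No transcript lengths or sequences were used here.

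The 13148 genes with a read in any sample were fitted in edgeR 4.0.16 (R 4.3.3, TMM factors, estimateDisp, Benjamini-Hochberg adjustment, threshold 0.05). Sex was tested with glmFit and glmLRT, the study's own choice, in M1 (10 samples of a tissue), in M2 (sex and tissue, 40 samples) and as an interaction. Tissues were compared in the M2 design with glmQLFit and glmQLFTest, all 4 tissues sharing the estimate of spread. Log2 fold changes use a prior count of 0.125, and standard errors come from the fitted model, in the tissue fits scaled by the moderated quasi-likelihood dispersion. Alternatives were the other edgeR test, DESeq2 1.42.0, RLE factors, library sizes alone, filterByExpr, each animal left out, the animal as a block (limma 3.58.1 for sex), and fits without the liver sample labelled bull 3 or the fat sample of bull 5. The fits were first run on simulated counts with the same dispersion for every gene, changes in well-covered genes alone and independent samples. That run does not cover genes of few reads or samples that share an animal. Figures used matplotlib 3.10.9 in Python 3.11.15.

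By the ear tags in the labels, samples of 1 animal are paired across tissues and those of a group come from separate animals. For the liver sample labelled bull 3 the data go against the label, and neither its pairing nor its being a separate animal is assured. Deviations of the same animal from the group means correlated across tissues with medians of 0.029 (liver and fat) to 0.324 (fat and muscle). The best match in the other tissue was the animal's own sample for only 1 (fat and pituitary) to 5 of 10 animals. The closest pair of samples within a tissue was that liver sample and the liver of cow 4 (chi-square per degree of freedom 15.0), more than counting noise, so both were kept as samples. The 95% intervals are Wald intervals of the fitted models. In M1 they cover the spread between these animals within a tissue. The main M2, interaction and tissue fits have no animal term and treat the samples of an animal as independent. Their intervals and p-values therefore do not measure the spread between animals alone.

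Named genes are the members in every comparison, the 3 genes most like each, and at most 4 genes of each list, those of highest mean CPM in muscle. CAPN14, TLN1, SPTAN1, ANXA1 and CTSL1 were added after their values were seen. Members and lists were chosen with earlier results of these data known.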

Additional observations from a re-analysis of the deposited data

Results flagged for a closer look

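Each member was looked at in each tissue and sex, 56 groups of 5 samples, for a single sample far from the rest by Dixon's ratio (critical value 0.71). Chance alone picks about 1 in 20 groups, and 3 were picked, all in fat. CAPNS1 in cow 3 was at 2111 CPM where the other cows had 513.8 to 765 CPM (ratio 0.843). CAPNS1 in bull 5 was at 1997 CPM where the other bulls had 777 to 1128 CPM (ratio 0.712). CAST in bull 5 was the lowest of the bulls, at 237.9 CPM where the others had 472 to 559.5 CPM (ratio 0.727). The fat sample of bull 5 is also the one with the lowest TMM factor in fat, 0.963.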

How the results depend on the processing

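The count of members called by sex stayed at 0 of 7 in each tissue, M2 and the interaction under every alternative run except 1: with library sizes alone M2 called 1, CAPN7 (adjusted p = 0.0359). Between muscle and pituitary the count rose from 4 to 7 with library sizes alone. In other pairs of tissues that setting also gained calls of CAPN1, CAPN2, CAPN5 and CAST, given with the results. The animal as a block changed 1 member's call, CAPN5 between muscle and pituitary (0.55), and no other. It turned CAPN1 in M2 to 0.031 and CAPN5 between liver and fat to 0.024, neither past the threshold.

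Other changes of sign by sex were in differences that were never called. Without the liver sample labelled bull 3, CAPN1, CAPN3 and CAPN5 in liver became 0.018, 0.031 and 0.075, and CAPN1 in M2 0.028. Library sizes alone gave −0.040 for CAPN7 in liver, −0.037 and −0.034 for CAPN2 and CAST in fat, −0.15 for CAST in muscle, −0.025 and −0.039 for CAPN2 and CAPN5 in the pituitary, and −0.063 for CAPNS1 in M2. Between tissues they gave 0.68 for CAPN5 and 0.30 for CAPN7 (fat minus liver), 0.025 for CAST (pituitary minus liver), −0.56 for CAST (muscle minus fat), and 0.78 for CAPN1 and 0.70 for CAPNS1 (pituitary minus muscle). By construction this setting drops the correction for composition.

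With each animal left out, sex differences that changed sign ranged from −0.31 to 0.066 (CAPN1), −0.62 to 0.11 (CAPN3), −0.28 to 0.18 (CAPN5) and −0.0003 to 0.19 (CAPN7) in liver, from −0.042 to 0.26 (CAST) in fat, from −0.12 to 0.094 (CAPN1), −0.14 to 0.036 (CAPN2), −0.24 to 0.06 (CAPNS1) and −0.087 to 0.095 (CAST) in muscle, from −0.17 to 0.57 (CAPN3) in the pituitary and from −0.093 to 0.081 (CAPN1) in M2. CAPN5 between liver and fat ranged from −0.21 to 0.15. CAPN2 passed between liver and pituitary without bull 4 (0.39, adjusted p = 0.0474). Depth limits CAPN3 outside muscle most, at 1 to 136 reads.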
